A study of Mus musculus with 16 samples.

Results

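The 10 genes of calcium storage and movement at the sarcoplasmic reticulum (SR) were followed in mouse cardiomyocytes: Atp2a2, Pln, Ryr2, Casq2, Casq1, Jph2, Hrc, Trdn, Asph and Slc8a1. They were chosen by name, as a set of one function, but with earlier results of these data known. Their counts beside the shares of all tested genes are therefore descriptive only. The genes are 10 of the 57010 gene models in the count table, and 10 of 10 passed the filter on low counts that left 14066 genes for testing. Adult cardiomyocytes were isolated from hearts of C57BL/6 mice labelled wild type, in 16 libraries that form 4 groups of 4. Vector sham mice received an adeno-associated virus of serotype 9 without the gene (AAV9-Vector) and a mock operation, and vector TAC mice received the same virus and transverse aortic constriction (TAC), a narrowing of the aorta that loads the left ventricle with pressure. PRODH sham and PRODH TAC mice received AAV9-PRODH, meant to raise proline dehydrogenase in the heart, before the same 2 operations. Surgery followed injection by 3 weeks, and cells were collected 4 weeks after surgery. The main questions were how TAC changes cardiomyocytes under the vector, and how PRODH changes them after TAC. Age, sex and the promoter that drives PRODH are not in the labels. Nor is it stated that the libraries within a group are from different mice, and the spread behind each p-value may then be partly technical.

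In a heartbeat, calcium that enters through the L-type channel opens ryanodine receptors in the SR membrane, and the calcium they release starts contraction. The SR pump SERCA2 then takes most of it back, under the brake of phospholamban, while the sodium-calcium exchanger of the cell surface carries the rest out of the cell. Inside the SR, calsequestrin and the histidine-rich calcium binding protein hold the stored calcium, triadin and junctin couple that store to the release channel, and junctophilin holds the SR against the T-tubule. In failing and pressure-loaded hearts this cycle is well known to slow.

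Each library held 15987580 to 22680212 estimated counts, of which mitochondrial genes and their nuclear copies took 53.1% to 62.9%, so 6274273 to 10242842 counts remained for other genes. The mitochondrial share differed by surgery, with group means of 61.1% in vector sham, 60.8% in PRODH sham, 54.7% in vector TAC and 54.9% in PRODH TAC. Prodh itself was at 10.9 ± 0.454 CPM (counts relative to library depth, made comparable by TMM, a trimmed mean of gene ratios; SD, n = 4) in vector sham, 13.8 ± 0.954 in PRODH sham, 7.28 ± 1.18 in vector TAC and 13.6 ± 1.05 in PRODH TAC. The rise under PRODH passed the test after TAC (log2 fold change 0.90 ± 0.10 SE, edgeR quasi-likelihood adjusted p = 2.19e-08) and did not after sham (0.33 ± 0.10, edgeR adjusted p = 0.0517). Cardiomyocyte structural genes were high in every library, with 12 markers summing to 42320.5 to 47549 CPM in vector sham, 39678 to 48267 in PRODH sham, 34634 to 38187 in vector TAC and 32043 to 36689 in PRODH TAC, so that the TAC libraries lay below the sham libraries of the same virus. Fibroblast markers were present too, and 12 of 12 rose with TAC under the vector: their sum was 313 to 480 CPM in vector sham, 441 to 470 in PRODH sham, 2172 to 2416 in vector TAC and 636 to 810 in PRODH TAC. Endothelial markers summed to 544 to 652 CPM in vector sham, 593 to 642 in PRODH sham, 1008 to 1127 in vector TAC and 757 to 865 in PRODH TAC. The sums of 9 myeloid markers were 120 to 192, 186 to 226, 355 to 383 and 199 to 246 in the same order. In the myeloid sums PRODH sham and PRODH TAC thus overlapped. The part of these cells in the results on calcium genes was not tested. In such bulk RNA, fewer cells of a type and less RNA per cell cannot be told apart.

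The sequences before the start of 4 genes are shown because these genes moved differently in the comparisons: the 2 calsequestrins, the release channel and the luminal calcium binder. They are the 250 bases before the annotated start, from RefSeq with build GRCm38.p6, written 5′ to 3′ on the gene's strand. They lie at chr3:102086165-102086414 (+) for Casq2, chr1:172219896-172220145 (-) for Casq1, chr13:12106946-12107195 (-) for Ryr2 and chr7:45335019-45335268 (+) for Hrc. Capitals mark the E-box (CANNTG), a site for bHLH factors, and the MEF2 match, a site for a muscle factor family.
Casq2: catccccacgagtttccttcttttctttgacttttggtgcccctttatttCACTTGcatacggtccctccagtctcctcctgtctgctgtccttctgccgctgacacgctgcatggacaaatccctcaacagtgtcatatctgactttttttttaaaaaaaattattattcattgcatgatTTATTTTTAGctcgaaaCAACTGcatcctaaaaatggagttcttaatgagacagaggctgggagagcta
Casq1: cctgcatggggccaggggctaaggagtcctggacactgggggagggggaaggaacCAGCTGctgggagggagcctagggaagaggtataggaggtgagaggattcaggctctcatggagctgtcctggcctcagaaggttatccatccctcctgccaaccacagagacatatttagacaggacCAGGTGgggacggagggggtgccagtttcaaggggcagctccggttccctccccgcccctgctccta
Ryr2: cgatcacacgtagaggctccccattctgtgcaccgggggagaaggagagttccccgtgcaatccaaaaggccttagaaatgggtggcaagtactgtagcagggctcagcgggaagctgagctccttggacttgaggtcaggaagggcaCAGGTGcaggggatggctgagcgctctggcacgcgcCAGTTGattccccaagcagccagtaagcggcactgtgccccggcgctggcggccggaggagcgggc
Hrc: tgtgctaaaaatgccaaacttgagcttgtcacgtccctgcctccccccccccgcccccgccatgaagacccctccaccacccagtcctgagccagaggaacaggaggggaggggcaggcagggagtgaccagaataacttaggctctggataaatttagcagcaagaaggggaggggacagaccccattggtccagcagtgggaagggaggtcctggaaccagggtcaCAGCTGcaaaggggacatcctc
The E-box was found in 7 of the 7 genes with such a window (Atp2a2, Trdn and Asph were not matched), against 66.2% of 32851 windows of the same length. A MEF2 match was found in Casq2 alone of the 7, at 69 bases before the start, against 2.92% of all windows. The other motifs searched on both strands were GATAA (22.6% of all windows), CATTCC (12.6%), GGGCGG (32.7%) and TATAAA (12.4%). Casq1 held GATAA and GGGCGG, as did Hrc, while Ryr2 and Casq2 held none of these 4. A match describes letters only, and E-boxes were in genes that fell with TAC and in genes that did not pass the test.

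In vector sham libraries the level per length of the deposited gene spanned a wide range. Phospholamban (Pln) led at 7115 ± 517 CPM per kilobase (SD, n = 4), followed by Atp2a2, which encodes SERCA2, at 1350.1 ± 76.0. The cardiac calsequestrin Casq2 (265 ± 16.2) and Hrc (264 ± 27.3) overlapped, and Slc8a1, the exchanger, was next at 76.1 ± 7.42 CPM per kilobase. Junctophilin 2 (Jph2, 54.8 ± 2.47) and triadin (Trdn, 52.5 ± 4.85) overlapped as well. Ryr2, the cardiac ryanodine receptor, stood at 36.7 ± 2.68 CPM per kilobase, Asph, whose transcripts include junctin and junctate beside an aspartyl hydroxylase, at 20.4 ± 1.64, and Casq1, the skeletal muscle calsequestrin, at 2.84 ± 0.170. The gene lengths decide part of this order. With the longest transcript of the GENCODE M21 annotation, 2334 bases in place of 531, Pln would stand at 1619 CPM per kilobase and still lead, and Slc8a1, with 18464 bases in place of 2913, would fall to 12 and be 9th of the 10.

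**Figure D1:**
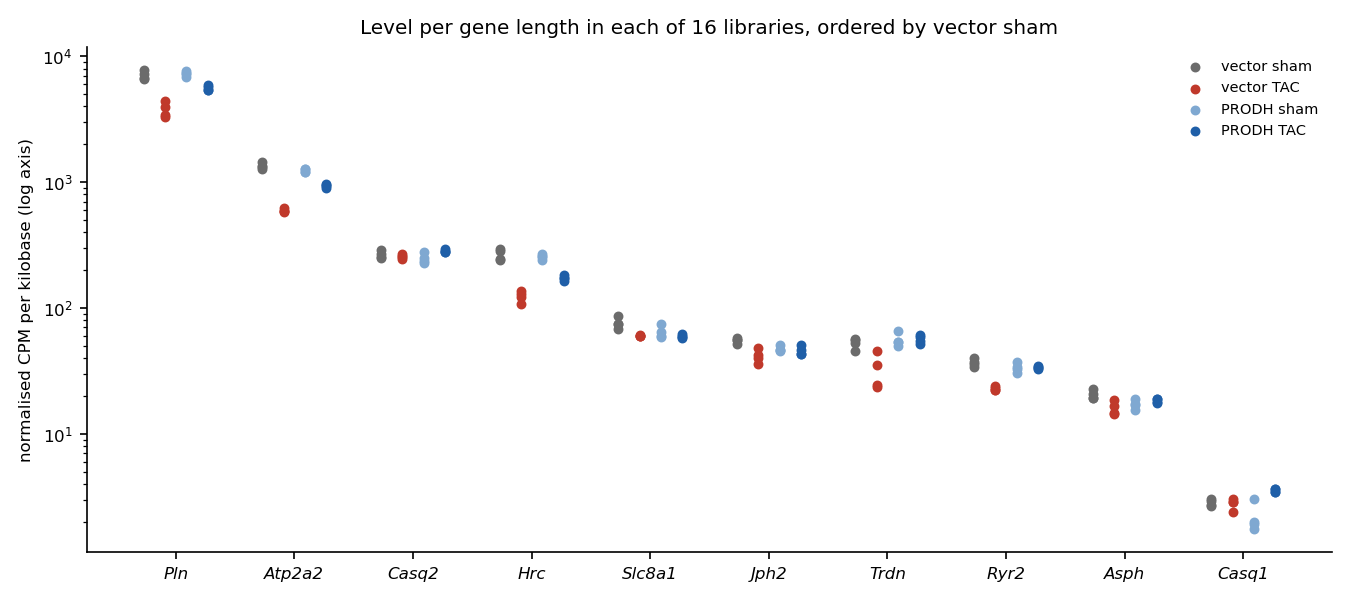
Normalised CPM per kilobase of the deposited gene length (log axis) for each of the 10 genes, one point per library and one colour per group of 4. Pln stands highest, at 7115 CPM per kilobase on average in vector sham, and Casq1 lowest, at 2.84.

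Casq1 was counted 55 to 170 times per library, so it is the only one of the 10 with few counts. The 12 skeletal muscle markers summed to 6.15 to 7.96 CPM in vector sham, 6.69 to 7.22 in PRODH sham, 4.16 to 6.55 in vector TAC and 3.96 to 5.39 in PRODH TAC. Among them Cacna1s (41 to 124 counts per library), Tnni2 (8 to 19) and Mylpf (2 to 9) had counts in every library, while the fast myosins were at or near 0 (Myh2 at 0 in all 16 libraries, Myh1 and Myh4 at 0 to 1). Their part in the Casq1 values was not tested. The log2 changes of Casq1 carry the largest or second largest standard error of the 10 genes in each comparison. The 10 genes together took 3.18% ± 0.186 (SD, n = 4) of counts outside mitochondrial genes in vector sham, 3.04% ± 0.196 in PRODH sham, 1.80% ± 0.106 in vector TAC and 2.73% ± 0.0445 in PRODH TAC. Atp2a2 alone made up 1.72%, 1.59%, 0.833% and 1.35% in the same order.

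TAC under the vector lowered most of the set. Of the 10 genes, 8 fell by the edgeR test with TMM scaling and 0 rose (4 fell and 2 rose with library size alone), and in those 8 the vector TAC and vector sham libraries did not overlap. Among all tested genes, 26.2% fell and 30.3% rose by this test with TMM, and 47.1% had groups that did not overlap. With library size alone, 1198 of the 14066 tested genes fell and 7468 rose. The median log2 change was -0.54 over the 10 genes and 0.02 over all genes. The falls were deepest for the pump and Hrc, and the calsequestrins did not pass the test. For Atp2a2, vector sham libraries had 8252, 7647, 7227 and 7516 CPM, and vector TAC libraries 3525, 3348, 3269 and 3358. Every TAC library thus lay below every sham library, and the fall was 2.27-fold (log2 fold change -1.18 ± 0.07 SE, edgeR adjusted p = 8.56e-15).

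Phospholamban fell with its target. Pln was at 4139.6, 3529.96, 3604 and 3839 CPM in vector sham and at 2095, 2326, 1743 and 1803 CPM in vector TAC (log2 fold change -0.92 ± 0.08, edgeR adjusted p = 8.85e-11). Vector TAC libraries 1 and 2 were higher than 3 and 4, but below all sham libraries. Among luminal binders, Hrc stood at 708, 679, 586 and 577 CPM in vector sham and at 294, 257, 311 and 326 in vector TAC, a fall of 2.15-fold (-1.10 ± 0.08, edgeR adjusted p = 7.81e-13). Casq2, the main store of the cardiac SR, did not pass the test: sham libraries had 699, 651, 613 and 618 CPM and TAC libraries 620.05, 650.48, 630.31 and 598, with overlapping ranges (-0.05 ± 0.07, edgeR adjusted p = 0.59). Casq1 was at 5.05, 5.63, 4.95 and 5.39 CPM in vector sham and 4.38, 5.30, 5.60 and 5.31 in vector TAC (-0.04 ± 0.13, edgeR adjusted p = 0.822). Both values turned above 0 with library size alone, where Casq2 was 0.31 and Casq1 0.31, and with the other 2 scalings outside TMM and RLE described below.

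The release complex also fell, unevenly. Ryr2 had 675, 567, 603 and 622 CPM in vector sham and 405, 376, 386 and 376 in vector TAC, a gap between groups (-0.68 ± 0.07, edgeR adjusted p = 1.98e-09). Trdn fell by the test, but its vector TAC libraries split, with 160.3 and 204 CPM in libraries 1 and 2 against 109 and 107 in libraries 3 and 4. The sham libraries had 255, 206, 238 and 249.87 CPM. Its log2 fold change was -0.71 ± 0.17 (edgeR adjusted p = 0.00344), and it was -0.38 without vector TAC libraries 3 and 4 and -1.13 without libraries 1 and 2, so this split moves it by more than 1.5-fold. Jph2 (229, 238, 230.18 and 214 CPM in sham, 165, 149, 198 and 174 in TAC) fell with a log2 fold change of -0.41 ± 0.08, edgeR adjusted p = 3.44e-05. Asph fell from 137 ± 11.0 to 107 ± 12.8 CPM (-0.35 ± 0.08, edgeR adjusted p = 0.000368), and Slc8a1 at the cell surface from 222 ± 21.6 to 175 ± 2.13 CPM (-0.34 ± 0.08, edgeR adjusted p = 0.000303), though both were at 0.01 with library size alone.

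**Figure D2:**
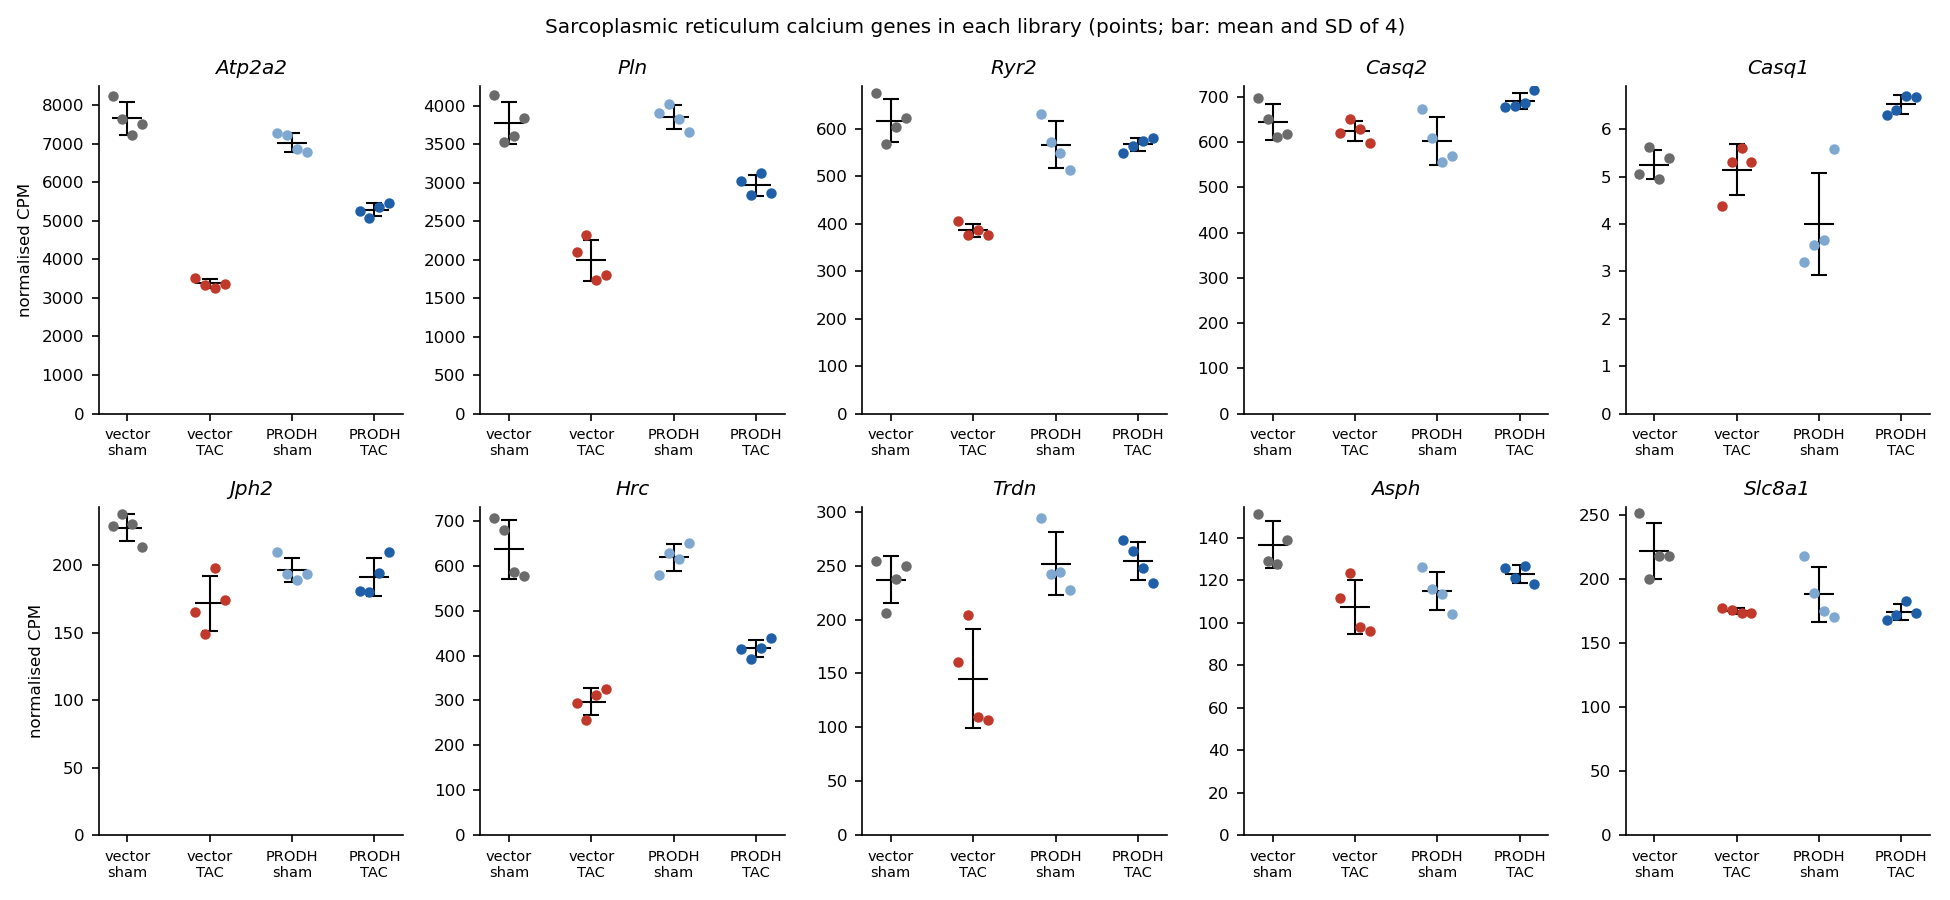
Normalised CPM in each library (points) with the mean and SD of the 4 libraries of a group (bars), one panel per gene. For Atp2a2 the vector TAC libraries sit at 3269 to 3525 CPM and the PRODH TAC libraries at 5065 to 5470.2, below the sham libraries; in the Trdn panel, vector TAC splits into 107 to 109 and 160 to 204.

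The scaling between libraries sets how far the smaller falls hold. Counted with library size alone, all genes moved up with TAC under the vector by a median log2 of 0.37, against 0.02 with TMM; with totals outside mitochondrial genes it was 0.16, and with 12 cardiomyocyte structural genes as the scale, 0.28. The share of rises among called genes was then 86.2%, 68.2% and 80.7%, against 53.6% with TMM. Under library size alone Asph was 0.01 and Slc8a1 0.01, no longer below 0, and Jph2 was -0.06 and Trdn -0.34, neither passing the test. Relative to the median of all genes, Atp2a2 was -1.20 under TMM, RLE and the other 3 scalings, and Slc8a1 was -0.36 to -0.37. A scaling shifts all genes of a comparison nearly alike, so this near-constancy follows by construction and does not test the falls. Atp2a2, Pln, Ryr2 and Hrc fell under all 5 scalings.

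PRODH after TAC raised 7 of the 10 genes by the edgeR test, and lowered 0, against 18.5% of all tested genes raised and 24.6% lowered. Groups that did not overlap were found in 39.3% of all tested genes. The median log2 change was 0.42 over the 10 genes and -0.04 over all genes. This comparison shares the 4 vector TAC libraries with the TAC comparison under the vector, so their opposite signs are not independent observations. The 7 were raised under all 5 scalings. SERCA2 RNA was at 5265, 5065, 5370.45 and 5470.2 CPM in PRODH TAC, above all 4 vector TAC libraries and below all sham libraries of both viruses. That is 1.57-fold vector TAC (log2 fold change of Atp2a2 0.65 ± 0.07, edgeR adjusted p = 7.18e-09). Pln, with 3023, 2846, 3135 and 2871 CPM in PRODH TAC, rose too (0.58 ± 0.08, edgeR adjusted p = 1.51e-06).

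Of the luminal binders, Hrc (416, 394, 418 and 440.3 CPM in PRODH TAC) rose (0.49 ± 0.08, edgeR adjusted p = 9.13e-06). Casq1 was at 6.31, 6.40, 6.70 and 6.69 CPM, above all vector TAC libraries (0.35 ± 0.13, edgeR adjusted p = 0.0266). That call was lost without vector TAC library 1 (0.27, edgeR adjusted p = 0.110), and without PRODH TAC library 3 (0.33, edgeR adjusted p = 0.0595) or 4 (0.33, edgeR adjusted p = 0.0537). The 6 atrial markers summed to 89.7 to 104 CPM in PRODH TAC against 67.2 to 76.3 in vector TAC. Of the 6, Myl7 (0.65), Myl4 (0.47), Sln (0.62) and Stard10 (0.55) rose, Nr2f2 fell (-0.77, edgeR adjusted p = 2.04e-06) and Bmp10 did not pass (-0.89, edgeR adjusted p = 0.0916), and their part in the Casq1 value was not tested. Casq2, at 679, 679.54, 688 and 716 CPM, lay above all vector TAC libraries but did not pass with TMM on all 16 libraries (0.14 ± 0.07, edgeR adjusted p = 0.0910). With TMM it did pass when any 1 sham library, which this comparison does not use, was left out (0.19, edgeR adjusted p = 0.0162 to 0.0346). In those fits the all-gene median was -0.0007 to -0.0008, against -0.04 in the main fit. It passed with DESeq2 (0.16, adjusted p = 0.0217) and, in edgeR, outside mitochondrial genes (0.20, adjusted p = 0.0181), with the cardiomyocyte scale (0.24, 0.0278) and with only the groups compared (0.19, 0.0177).

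In the release complex, Ryr2 rose to 549.3, 563, 575 and 581 CPM in PRODH TAC (0.56 ± 0.07, edgeR adjusted p = 1.98e-07), with no overlap with vector TAC. Trdn (274, 264, 247 and 234 CPM) rose by 0.81 ± 0.17 (edgeR adjusted p = 0.00199); it was 0.48 without vector TAC libraries 3 and 4, and 1.24 without 1 and 2. Asph was only just past the threshold and its groups overlapped, with 126, 121, 127 and 118 CPM in PRODH TAC and 111, 124, 98.1 and 96.3 in vector TAC (0.20 ± 0.08, edgeR adjusted p = 0.0435). It did not pass without vector TAC libraries 3 and 4 (0.07, edgeR adjusted p = 0.59), nor when vector TAC library 3 or 4, or PRODH TAC library 1, 2 or 3, was left out alone. Jph2 (191 ± 14 CPM against 172 ± 20.4, 0.15 ± 0.08, edgeR adjusted p = 0.0985) missed the threshold with TMM on all 16 libraries. With TMM and any 1 sham library left out, Jph2 passed (0.20, edgeR adjusted p = 0.0284 to 0.0414). It passed with library size alone (0.20, edgeR adjusted p = 0.0423), outside mitochondrial genes (0.21, 0.0205), with the cardiomyocyte scale (0.25, 0.0122) and with only the groups compared (0.20, 0.0472). Slc8a1, the exchanger, was at 174 ± 6.21 CPM against 175 ± 2.13, with a log2 difference of -0.01 ± 0.08 (edgeR adjusted p = 0.940), a sign that turned to above 0 under the other 4 scalings.

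**Figure D3:**
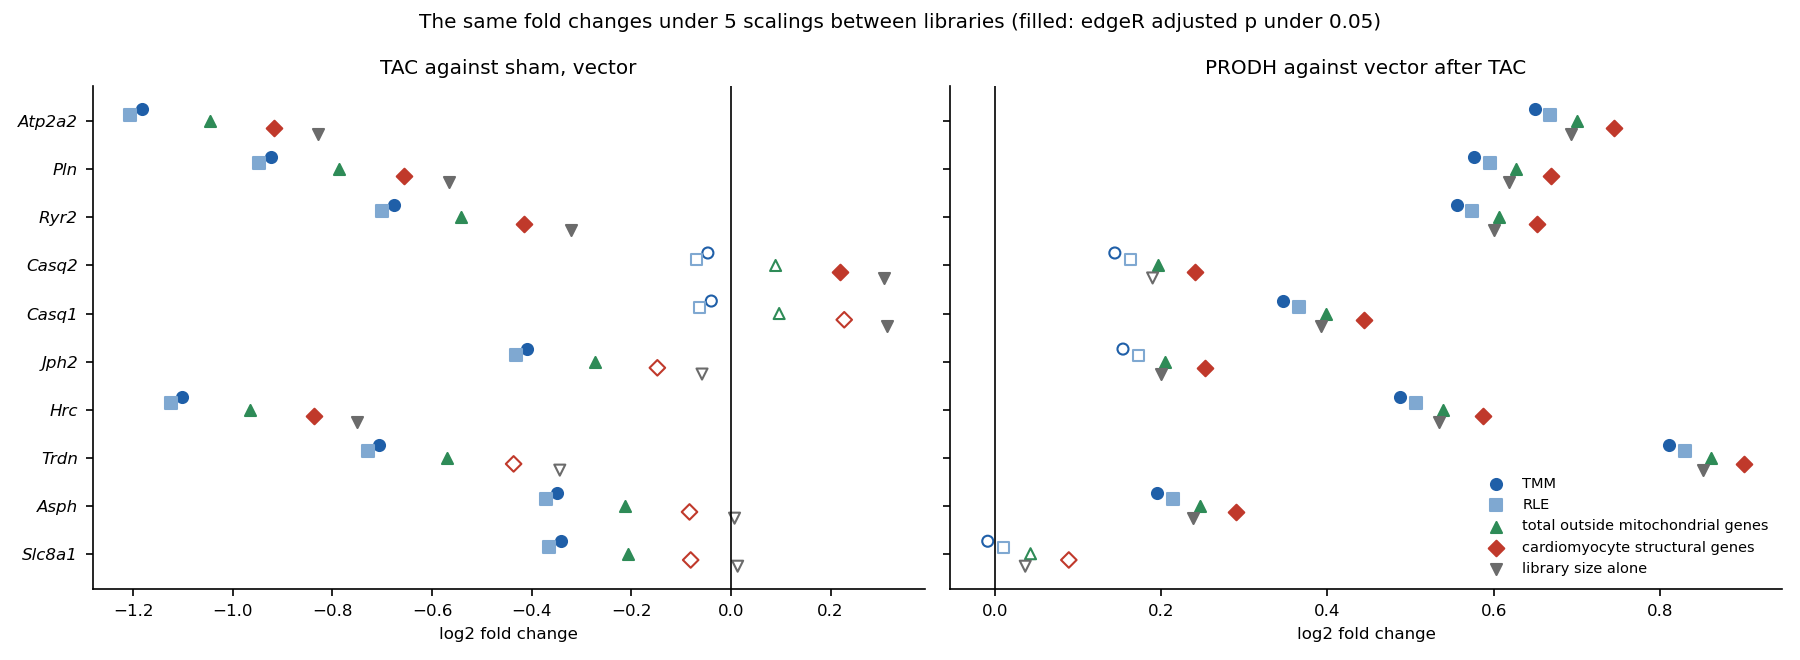
Log2 fold change of each gene under 5 scalings between libraries, for TAC against sham under the vector and for PRODH against vector after TAC; filled symbols passed the edgeR test. With library size alone Casq2 and Casq1 turn above 0 in the first comparison (0.31 each), Asph and Slc8a1 move to 0.01, and in the second Slc8a1 changes sign, between -0.01 and 0.09.

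With TAC under PRODH, 3 of the 10 genes fell (Atp2a2, Pln and Hrc) and 2 rose (Casq2 and Casq1) by the edgeR test with TMM. Of all tested genes, 17.8% were lowered and 17.2% raised with TMM. With library size alone, 1 of the 10 fell and 6 rose, while 312 of 14066 tested genes fell and 7872 rose. In the 5 genes called with TMM the PRODH sham and PRODH TAC libraries did not overlap, as in 34.7% of all tested genes. Atp2a2 went from 7031.5 ± 252 CPM in PRODH sham to 5293 ± 173 in PRODH TAC (-0.41 ± 0.07, edgeR adjusted p = 2.91e-05) and Pln from 3855 ± 155 to 2969 ± 136 (-0.38 ± 0.08, edgeR adjusted p = 0.000631). These 2 calls were lost with library size alone (-0.04 and -0.002) and with the cardiomyocyte scale (-0.07 and -0.04), under which the median of all genes was 0.39 and 0.36. Hrc fell under all 5 scalings, from 619 ± 29.8 to 417 ± 19.1 CPM (-0.57 ± 0.08, edgeR adjusted p = 1.64e-06). Casq1 rose from 4.00 ± 1.07 to 6.52 ± 0.199 CPM (0.71 ± 0.13, edgeR adjusted p = 0.000130). Its PRODH sham libraries read 3.21, 3.55, 3.66 and 5.58 CPM, so the last lies above the others but under all PRODH TAC libraries. The 6 atrial markers summed to 46.9 to 62.7 CPM in PRODH sham and 89.7 to 104 in PRODH TAC. Of them, 4 were called higher and 1 lower, and their part in this Casq1 value was not tested. Casq2 rose from 603 ± 52.3 to 690.47 ± 17.6 CPM (0.20 ± 0.07, edgeR adjusted p = 0.0270), a call lost without PRODH sham library 3 or PRODH TAC library 3 or 4. Ryr2 was at 566 ± 49.0 CPM before and 567 ± 13.8 after TAC, and its log2 change of 0.002 ± 0.07 with TMM was 0.37 with library size alone. The other 4 (Jph2 -0.04, Trdn 0.02, Asph 0.10, Slc8a1 -0.11) did not pass with TMM, and Jph2 and Slc8a1 were above 0 with library size alone (0.34 and 0.26).

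The difference between the TAC responses, PRODH minus vector, was tested directly. It was above 0 and passed in 8 of the 10 genes, against 10.9% of all tested genes with a called difference above 0 and 15.8% below. It was 0.77 ± 0.10 on the log2 scale for Atp2a2 (edgeR adjusted p = 5.47e-07), 0.55 ± 0.12 for Pln, 0.68 ± 0.10 for Ryr2, 0.75 ± 0.19 for Casq1 and 0.53 ± 0.11 for Hrc. Jph2 (0.37 ± 0.11) and Asph (0.45 ± 0.11) differed less, and Trdn (0.72 ± 0.25) passed narrowly (edgeR adjusted p = 0.0437). The Trdn call was lost with library size alone and in most fits that left out 1 library. Casq2 (0.24 ± 0.10, edgeR adjusted p = 0.0642) and Slc8a1 (0.23 ± 0.11, edgeR adjusted p = 0.113) did not pass. The Casq2 difference passed with DESeq2 (0.26, adjusted p = 0.0135), outside mitochondrial genes (0.28, edgeR adjusted p = 0.0267) and when vector sham library 2, 3 or 4, PRODH sham library 1, 2 or 4 or vector TAC library 2 was left out. That of Slc8a1 passed without vector sham library 2 (0.32, edgeR adjusted p = 0.0241) or PRODH sham library 1 (0.35, edgeR adjusted p = 0.00713). Of the 6 atrial markers, 5 had a called difference above 0 and 1 below, and their part in the Casq1 difference was not tested.

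PRODH after sham called 0 of the 10 genes by edgeR, against 2.20% of all tested genes called lower and 2.81% higher. At an unadjusted p under 0.05 the genes below vector sham were Asph (-0.25 ± 0.08, edgeR adjusted p = 0.0606), Slc8a1 (-0.24 ± 0.08, adjusted p = 0.0668), Jph2 (-0.22 ± 0.08, adjusted p = 0.107) and Casq1 (-0.41 ± 0.14, adjusted p = 0.109). No share of all tested genes is given for that unadjusted threshold, so these genes are not read as calls. DESeq2 called 2 of the 10 as lower, against 315 lower and 412 higher of 14066 tested genes. For Jph2, PRODH sham libraries had 209, 193, 189 and 193 CPM, all below the vector sham range of 214 to 238. Such gaps between the groups were found in 10.4% of all tested genes. Atp2a2 stood at 7274, 7221, 6856 and 6776 CPM in PRODH sham, overlapping with vector sham (-0.12 ± 0.07, edgeR adjusted p = 0.390). Ryr2 (-0.12 ± 0.07, edgeR adjusted p = 0.407) and Casq2 (-0.10 ± 0.07, edgeR adjusted p = 0.543) did not pass either. Pln (0.03 ± 0.08), Trdn (0.09 ± 0.17) and Hrc (-0.04 ± 0.08) lay within 1 standard error of 0.

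PRODH TAC was also set against vector sham. The call was lower for 5 of the 10 genes, with 0 higher, against 21.2% of all tested genes called lower and 22.0% higher. All 5 had groups that did not overlap, as did 39.6% of all tested genes. They were Atp2a2 (-0.53 ± 0.07), Hrc (-0.61 ± 0.08), Pln (-0.35 ± 0.08), Slc8a1 (-0.35 ± 0.08) and Jph2 (-0.25 ± 0.08). Hrc kept the call under all 5 scalings, while with library size alone the Atp2a2 call was lost (-0.14, edgeR adjusted p = 0.107) and Pln, Jph2 and Slc8a1 turned above 0 (0.05, 0.14 and 0.05). Ryr2 (-0.12 ± 0.07, edgeR adjusted p = 0.164, and 0.28 with library size alone), Trdn (0.10 ± 0.17), Casq2 (0.10 ± 0.07), Casq1 (0.31 ± 0.13, edgeR adjusted p = 0.0524) and Asph (-0.15 ± 0.08, edgeR adjusted p = 0.112, and 0.25 with library size alone) did not pass with TMM. Casq2 and Casq1 were called higher with library size alone (0.50 and 0.71), outside mitochondrial genes (0.29 and 0.50) and with the cardiomyocyte scale (0.46 and 0.67). Under these scalings, in the same order, the median of all genes was 0.42, 0.20 and 0.38. With library size alone 8149 of 14066 tested genes were called higher, and the values of Pln, Jph2 and Slc8a1 lay below the median.

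**Figure D4:**
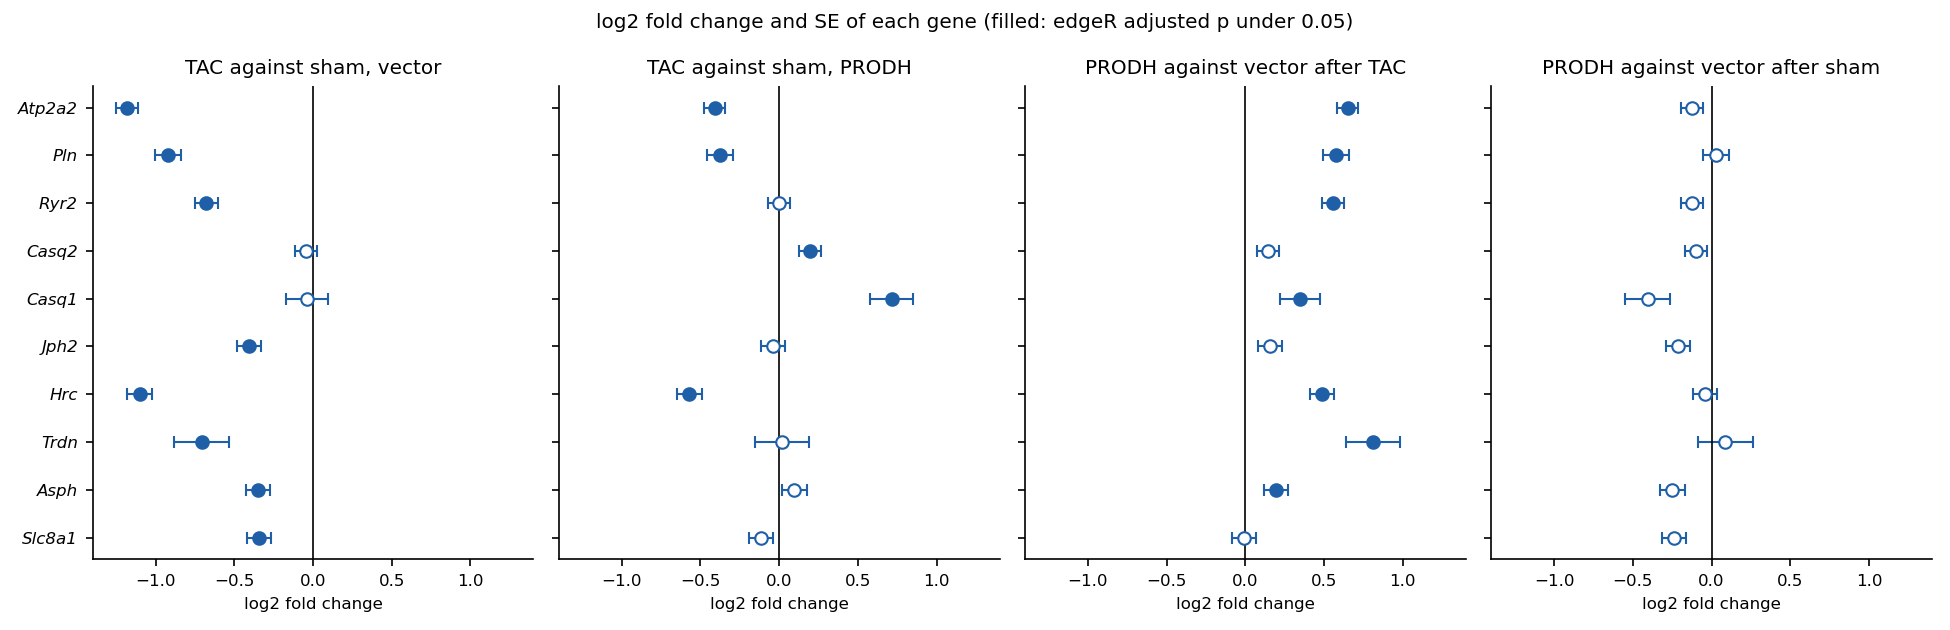
Log2 fold change with its SE for each gene in 4 comparisons, filled where the edgeR adjusted p was under 0.05, with TMM scaling. In TAC against sham under the vector, the 8 genes that passed lie from -0.34 to -1.18 (Asph and Slc8a1 were at 0.01 with library size alone), and in PRODH against vector after TAC the 7 that passed lie from 0.20 to 0.81; the sign of Slc8a1 in the latter depends on the scaling.

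Ratios of 2 genes within 1 library do not depend on the scaling between libraries. The exchanger-to-pump ratio (Slc8a1 to Atp2a2, in estimated counts) was 0.0289 ± 0.00198 (SD, n = 4) in vector sham, 0.0267 ± 0.00222 in PRODH sham, 0.0518 ± 0.00117 in vector TAC and 0.0329 ± 0.00125 in PRODH TAC. The ratio of calsequestrin to its channel, Casq2 to Ryr2, was 1.05 ± 0.0690, 1.06 ± 0.0402, 1.62 ± 0.0847 and 1.22 ± 0.0194 in the same order. For both ratios, groups did not overlap between vector sham and vector TAC, nor between the 2 viruses after TAC, with exact two-sided permutation p = 0.0286 each, the smallest that 4 against 4 libraries can give. Over the 20 tests of 5 ratios in 4 comparisons, 10 reached that p, but the adjusted value was 0.0571, so 0 passed at 0.05. Phospholamban to its target, Pln to Atp2a2, was 0.493 ± 0.0217 in vector sham and 0.590 ± 0.0754 in vector TAC, with the ranges apart (exact permutation p = 0.0286, adjusted 0.0571). It was 0.548 ± 0.0115 in PRODH sham and 0.561 ± 0.0258 in PRODH TAC, which overlap. PRODH sham also lay apart from vector sham (exact permutation p = 0.0286, adjusted 0.0571). After TAC the 2 viruses overlapped in this ratio (exact permutation p = 0.629). The Jph2 to Ryr2 ratio was 0.445 ± 0.0537 in vector TAC and 0.337 ± 0.0180 in PRODH TAC, apart from each other (exact permutation p = 0.0286, adjusted 0.0571), and between 0.340 and 0.420 in vector sham.

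**Figure D5:**
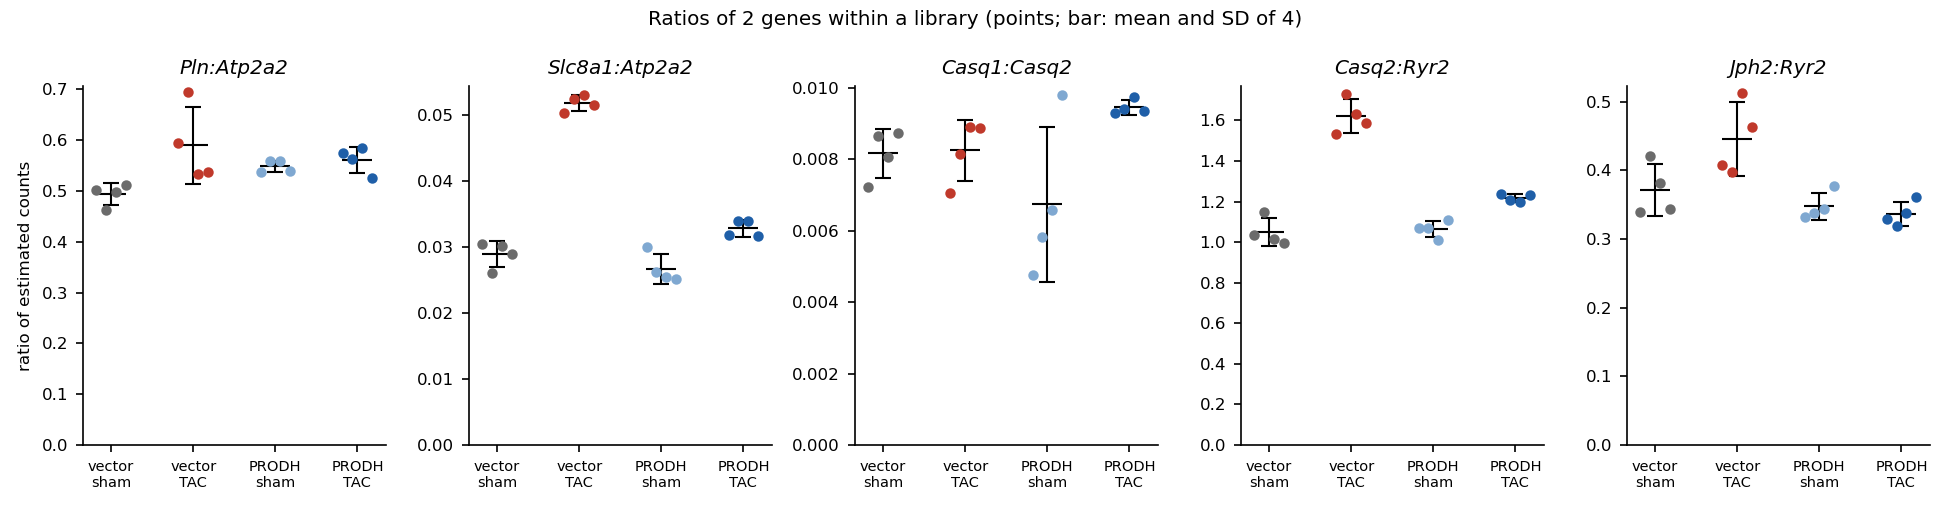
Ratio of the estimated counts of 2 genes in each library (points) with the mean and SD of 4 (bars). Slc8a1 to Atp2a2 is 0.0503 to 0.0530 in vector TAC, 0.0317 to 0.0340 in PRODH TAC and at most 0.0305 in the sham groups.

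The genes whose pattern over the 16 libraries lay nearest were found by the root-mean-square (RMS) difference of log2 CPM, each gene centred on its own mean, among 8049 tested genes of standard name with a mean of 5 CPM or more. Atp2a2 was nearest to Aldh5a1 (0.07), a mitochondrial dehydrogenase, Dusp18 and Adhfe1; Pln to Hsdl2 (0.05), Aldh6a1 and Decr1; and Ryr2 to Pptc7 (0.06) and Nav2. The nearest to Hrc were Fkbp4, Retsat and Fitm2, and to Casq2 Slc6a8, the creatine transporter, Oxsr1 and Mllt6. Jph2 lay nearest to Entpd4b, Kcnj11 and Lynx1, Asph to Mtrex, Cab39 and Cdc37l1, Slc8a1 to Nacc2, Ncoa4 and Ablim1, and Trdn to Rb1cc1 (0.11), Pcmtd1 and Zfp943. Casq1 had no near neighbour, with Myl7, the atrial light chain, at 0.20, then Myl1 and Cabin1. Within the set, the closest pair was Atp2a2 and Hrc (0.12).

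Further genes of the calcium pathway were taken from 6 lists with 63 genes, of which 58 were tested. Mrln, Atp2a1, Ryr1, Fkbp1b and Jsrp1 had too few counts. TAC under the vector raised 19 of the 58 and lowered 24, with a median log2 change of -0.11, and PRODH after TAC raised 20 and lowered 22, with a median of -0.11. Of all tested genes, TAC under the vector raised 30.3% and lowered 26.2%, and PRODH after TAC raised 18.5% and lowered 24.6%; the counts of the lists below are to be read against these shares. The TAC counts depend on the scaling, with 29 raised and 6 lowered under library size alone, 24 and 11 outside mitochondrial genes, and 24 and 6 with the cardiomyocyte scale. For PRODH after TAC those counts were 21 and 21, 21 and 21, and 21 and 17. Among all tested genes, TAC under the vector raised 7468, 5286 and 6345 under these scalings and lowered 1198, 2469 and 1522. Sarcolemma and T-tubule genes went down with TAC in 7 of 10 and up in 2. The calcium channel subunit Cacnb2 fell from 32.8 ± 1.96 to 16.8 ± 0.526 CPM (log2 fold change -0.96 ± 0.08, edgeR adjusted p = 5.26e-12). After TAC, PRODH raised 5 of these 10, among them Cacnb2 (0.74 ± 0.07) and the channel's pore gene Cacna1c (0.51 ± 0.07), and lowered 3.

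Among pumps and pump regulators 2 of 6 rose with TAC under the vector and 1 fell. The pump-activating peptide gene Strit1 fell from 5.10 ± 0.482 to 2.08 ± 0.623 CPM (-1.30 ± 0.17), while the pump isoform Atp2a3 rose from 4.05 ± 0.733 to 8.66 ± 1.18 (1.08 ± 0.14) and Sri, sorcin, rose (0.51 ± 0.09). PRODH after TAC lowered 3 of the 6, including Sri (-0.58 ± 0.09) and S100a1 (-0.35 ± 0.07), and raised 2, including sarcolipin (Sln, 0.62 ± 0.12, from 4.83 ± 0.641 to 7.46 ± 0.629 CPM). In the list of release channels, 4 of 10 rose and 5 fell with TAC under the vector, the IP3 receptors Itpr2 (1.14 ± 0.12) and Itpr3 (1.23 ± 0.18) among the rises with Fkbp1a (0.37 ± 0.07). PRODH after TAC lowered Fkbp1a (-0.45 ± 0.07) and raised Speg (0.45 ± 0.07) and Jph1 (0.57 ± 0.10), with 3 of 10 raised and 2 lowered.

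Store-operated entry and luminal buffer genes rose in 3 of 8 with TAC under the vector, a share near the 30.3% of all tested genes, and fell in 0: Stim2 (1.18 ± 0.12), Stim1 (1.13 ± 0.13) and Sdf4 (0.55 ± 0.07). PRODH after TAC lowered 5 of these 8, with Stim2 at -0.65 ± 0.11, Stim1 at -0.62 ± 0.12 and Sdf4 at -0.47 ± 0.07. Of 17 kinases, phosphatases and anchors, TAC under the vector raised 4, among them Prkar1a (0.27 ± 0.07) and Calm3 (0.26 ± 0.07), and lowered 8, among them the phosphodiesterase Pde3a (-0.72 ± 0.09). PRODH after TAC raised 9, with Ppp1r3a, a glycogen-targeting phosphatase subunit, at 1.32 ± 0.19, and lowered 4, with Prkar1a at -0.44 ± 0.07. In the 7 genes of mitochondrial calcium, TAC under the vector raised 4, including Mcub (0.60 ± 0.0839 to 1.83 ± 0.154 CPM) and Slc8b1 (2.54 ± 0.230 to 4.55 ± 0.370 CPM), and lowered 3, including Letm1 (-0.72 ± 0.06). PRODH after TAC lowered 5 of them, including Mcub (-1.13 ± 0.24), Micu2 (-0.33 ± 0.07) and Smdt1 (-0.33 ± 0.09), and raised 1.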

How the data were processed

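Total RNA, extracted with TRIzol and freed of DNA, was made into SMARTER mRNA-Seq libraries, per the labels' protocols. The authors deposited estimated counts per gene for 16 libraries, not scaled to depth, with gene lengths. The aligner, counter, build and annotation were not given in the sources used here. Estimated counts of Atp2a2, Pln and Asph were fractional in 8, 15 and 9 libraries, as a counter gives where it divides reads between similar sequences. All sample columns matched a sample by name. No 2 libraries of any group were duplicates (chi-square per gene 2.87 to 30.7).

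Rounded counts went into edgeR 4.0.16 under R 4.3.3 (filterByExpr with minimum count 10 and minimum total 15, TMM, robust quasi-likelihood fit to all 16 libraries, 4 groups, no block, prior count 0.125). Benjamini-Hochberg adjustment ran over 14066 genes, with a threshold of 0.05. SE belongs to log2 fold changes and SD to the 4 libraries of a group. Normalised CPM were computed here. Ratios used an exact two-sided permutation test adjusted over 20 tests. On simulated counts for TAC under the vector (13780 genes), 67.2%, 88.1% and 93.9% of genes changed 1.5-, 2- and 4-fold were recovered, with 8.79% of calls false. For PRODH after TAC (13756 genes) it was 70.1%, 88.1% and 97%, with 3.41% false. Only 67, 67 and 66 genes were changed in each simulation, in a single group. In the data, 7949 of 14066 genes were called for TAC under the vector, so these rates do not describe such wide change.

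Alternatives were library size alone, RLE factors, totals outside mitochondrial genes, a scale of 12 cardiomyocyte structural genes, DESeq2 1.42.0, no filter, only the groups compared, the replicate number as a block, and each library left out. The fits of vector TAC without libraries 3 and 4, or without 1 and 2, were chosen after seeing the data. All 10 genes are named in every comparison, with up to 3 called genes of smallest p per pathway list in both main comparisons and the 3 nearest genes per gene by pattern. Some genes that this rule names are not reported here. The members and lists were chosen with earlier results of these data known. Intervals are not given for levels, since estimated counts without molecular identifiers are not independent molecules.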

Additional observations from a re-analysis of the deposited data

Results flagged for a closer look

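The TAC response differed between the viruses in 8 of the 10 genes by the interaction term of the edgeR fit, PRODH minus vector. Of all tested genes, 10.9% had a called difference above 0 and 15.8% below. Of the 8, all but Trdn passed under all 5 scalings. The differences on the log2 scale were 0.77 for Atp2a2, 0.55 for Pln, 0.68 for Ryr2, 0.75 for Casq1, 0.37 for Jph2, 0.53 for Hrc, 0.72 for Trdn and 0.45 for Asph. Those of Trdn and Jph2 depend on which vector TAC libraries are used: Trdn was 0.40 without libraries 3 and 4 and 1.15 without 1 and 2, and Jph2 was 0.25 without 1 and 2 (edgeR adjusted p = 0.0565). No library stood apart by Dixon's criterion in any of the 60 groups of 4 values examined, 40 of genes and 20 of ratios, where chance would flag about 3. The criterion weighs 1 extreme value in a group, so it does not address a split of 2 against 2 libraries.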

How the results depend on the processing

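The counts of the 10 genes called moved most with the scaling between libraries. With library size alone, TAC under the vector had 2 higher and 4 lower, TAC under PRODH 6 higher and 1 lower, and PRODH TAC against vector sham 5 higher and 1 lower. Of 14066 tested genes, 7468, 7872 and 8149 were then higher and 1198, 312 and 410 lower, in the same order. With totals outside mitochondrial genes, TAC under PRODH had 4 higher, and PRODH TAC against vector sham 2 higher and 2 lower. Here 4547 and 5090 of 14042 tested genes were higher, and 1143 and 1375 lower. With the cardiomyocyte scale, TAC under the vector had 1 higher and 4 lower, TAC under PRODH 5 higher and 1 lower, and PRODH TAC against vector sham 3 higher and 2 lower. All-gene counts under this scale were 6345, 6972 and 7340 higher and 1522, 416 and 530 lower, of 14066. The shifts of the all-gene median given above are part of these alternatives' construction. PRODH TAC against vector sham had 1 higher with only the groups compared and without vector TAC libraries 1 and 2 (chosen after seeing the data). Of 14066 tested genes, 2964 and 3205 were then higher. PRODH after sham had 2 lower with DESeq2, with no filter and without vector TAC libraries 3 and 4, and 3 lower without 1 and 2. In the same order, 315 of 14066, 328 of 28413, 358 of 14066 and 375 of 14066 tested genes were lower. Leaving out 1 library at a time gave 0 to 1 higher for PRODH TAC against vector sham, 1 to 2 higher for TAC under PRODH, 0 to 2 lower for PRODH after sham, 5 to 9 higher for PRODH after TAC, 7 to 10 for the interaction and 8 lower for TAC under the vector. All-gene counts, of 14066 and in the same order, were 2578 to 3420, 1923 to 2902, 225 to 353, 2224 to 3114, 1306 to 1998 and 3360 to 3840. For PRODH after TAC, the count of 9 came in fits without 1 sham library. There the all-gene median was -0.0007 to -0.0008, against -0.04 in the main fit. The cause was not tested.

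The replicate numbers did not pair the libraries: same-numbered pairs correlated at -0.10 to 0.16, with 3 of 24 over 0.1, and 5 of 16 libraries correlated best with their own number. With the replicate block, PRODH TAC against vector sham had 1 higher and PRODH after sham 2 lower, and the counts of the other comparisons were those given above (8 lower for TAC under the vector, 7 higher for PRODH after TAC, 8 for the interaction). All-gene counts with the block, of 14066 and in the same order, were 3072, 310, 3696, 2643 and 1606.

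Signs turned, on the log2 scale, in values near 0 and also in some that passed with TMM. The latter were Asph and Slc8a1 for TAC under the vector (-0.35 and -0.34). For PRODH TAC against vector sham they were Pln, Jph2 and Slc8a1 (-0.35, -0.25 and -0.35). Some turned values passed with library size alone, as did Casq2 for TAC under the vector (edgeR adjusted p = 0.00119). Ryr2 for PRODH TAC against vector sham passed as well (edgeR adjusted p = 0.00352). For TAC under the vector, library size alone gave Casq1 0.31, Casq2 0.31, Asph 0.0072 and Slc8a1 0.013, totals outside mitochondrial genes Casq1 0.097 and Casq2 0.090, the cardiomyocyte scale Casq1 0.23 and Casq2 0.22, and vector TAC without 1 and 2 Casq1 0.0503. For Slc8a1 under PRODH after TAC the values were 0.037 (library size alone), 0.010 (RLE), 0.043 (outside mitochondrial genes), 0.089 (cardiomyocyte scale), 0.010 (DESeq2), 0.0065 (no filter), 0.035 (only the groups compared) and 0.0061 (vector TAC without 1 and 2). For TAC under PRODH, Jph2 was 0.34, 0.13 and 0.30 and Slc8a1 0.26, 0.059 and 0.22 with library size alone, outside mitochondrial genes and with the cardiomyocyte scale, and Ryr2 -0.0016 with RLE and -0.0017 with DESeq2. For PRODH TAC against vector sham, library size alone gave Jph2 0.14, Ryr2 0.28, Asph 0.25, Pln 0.052 and Slc8a1 0.0502, outside mitochondrial genes Ryr2 0.065 and Asph 0.033, and the cardiomyocyte scale Jph2 0.11, Ryr2 0.24, Asph 0.21, Pln 0.012 and Slc8a1 0.0083. Leaving out 1 library gave ranges of -0.032 to 0.034 for Slc8a1 under PRODH after TAC, -0.094 to 0.0047 for Hrc, -0.0034 to 0.070 for Pln and -0.00012 to 0.13 for Trdn under PRODH after sham, -0.087 to 0.028 for Jph2, -0.14 to 0.00019 for Slc8a1, -0.010 to 0.092 for Ryr2 and -0.021 to 0.14 for Trdn with TAC under PRODH, and -0.084 to 0.036 for Casq1 with TAC under the vector.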
